A study of Mus musculus with 39 samples.

Results

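Primed enhancers of Oct4+ nEnd were taken as 1975 of the 5456 H3K4me1 regions of these cells that lie outside promoters. A region was a merged peak interval of the 3 libraries of a mark and population with a peak in at least 2 of them. Primed regions overlapped no H3K27ac region and no H3K27me3 region of Oct4+ nEnd. The other regions were active (H3K27ac, 3348), bivalent (H3K27me3, 101) or held both marks (32). The members were thus chosen by the measured H3K4me1, H3K27ac and H3K27me3 peaks of the Oct4+ libraries, and values of those marks in those libraries are given below as a description only.

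The cells were mouse naive extra-embryonic endoderm (nEnd), obtained by differentiating an OCT4-mCherry reporter ESC line towards primitive endoderm in RACL medium (LIF, CHIR99021 and Activin A), sorting for PDGFRA and expanding the cells on mouse embryonic fibroblast feeders. Untreated cultures were sorted by FACS into cells positive for OCT4-mCherry alone (Oct4+), for OCT4-mCherry and PDGFRA (DP), and for PDGFRA alone (Pdgfra+). All groups came from 1 reporter line on feeder cells. CUT&Tag was performed for 4 marks in 3 replicates of each population, giving 36 peak lists. The study describes them as biological replicates. Neither the study nor the labels say whether they were separate cultures or separate sorts of 1 culture, so that p-values measure the spread between these libraries.

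H3K4me1 is placed on enhancers by the KMT2C and KMT2D methyltransferases, often before an enhancer is used, and an enhancer that carries it without other marks is called primed. H3K27ac, added by EP300 and CREBBP, marks enhancers in use. H3K27me3 is the product of Polycomb repressive complex PRC2, and H3K9me3 marks heterochromatin. In early embryo cells, priming is known as a state in which lineage enhancers can be held ready without driving transcription. In a mixed population, a mark carried by few cells and a weak mark carried by all cells cannot be told apart.

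The sequences below show what the members look like at their centre. Each is a stretch of the GRCm38 reference (RefSeq) centred on the motif match nearest to the H3K4me1 maximum, with the match in capitals, written 5′ to 3′ on the strand of the match. The first 2 lie near pluripotency genes, the others are the leading members of each class described further below, and Casz1 and Gadd45a were added after the values were seen to show a composite SOX-POU and an ESRRB match. The composite was searched with at most 2 mismatches, and the match at Casz1 is not exact.
Sox2, TCF/LEF, chr3:34668398-34668518, forward strand: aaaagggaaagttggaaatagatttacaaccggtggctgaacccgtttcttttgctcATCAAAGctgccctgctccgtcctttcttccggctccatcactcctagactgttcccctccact
Nanog, KLF, chr6:122733699-122733819, forward strand: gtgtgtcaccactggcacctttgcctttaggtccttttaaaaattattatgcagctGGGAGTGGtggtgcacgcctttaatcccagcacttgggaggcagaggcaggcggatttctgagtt
Casc1, KLF, chr6:145176522-145176642, forward strand: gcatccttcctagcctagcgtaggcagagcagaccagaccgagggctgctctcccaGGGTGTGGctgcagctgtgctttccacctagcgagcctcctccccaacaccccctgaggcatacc
Epha2, KLF, chr4:141311006-141311126, forward strand: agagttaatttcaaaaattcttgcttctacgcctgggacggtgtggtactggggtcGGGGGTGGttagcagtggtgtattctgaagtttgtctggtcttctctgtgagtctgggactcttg
Srcin1, KLF, chr11:97567297-97567417, forward strand: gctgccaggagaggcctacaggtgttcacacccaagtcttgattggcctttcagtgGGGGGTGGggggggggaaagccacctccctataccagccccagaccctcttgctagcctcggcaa
Casz1, SOX-POU composite, chr4:148890994-148891114, forward strand: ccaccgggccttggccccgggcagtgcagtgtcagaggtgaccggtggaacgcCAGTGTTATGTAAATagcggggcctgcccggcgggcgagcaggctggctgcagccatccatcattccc
Vangl1, SOX, chr3:102190702-102190822, reverse strand: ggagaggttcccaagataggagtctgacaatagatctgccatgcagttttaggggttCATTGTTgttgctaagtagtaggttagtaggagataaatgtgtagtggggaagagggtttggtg
Lpcat3, KLF, chr6:124672193-124672313, reverse strand: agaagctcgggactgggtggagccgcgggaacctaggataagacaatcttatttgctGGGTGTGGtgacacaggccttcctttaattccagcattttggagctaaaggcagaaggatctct
Gadd45a, ESRRB, chr6:67013964-67014084, forward strand: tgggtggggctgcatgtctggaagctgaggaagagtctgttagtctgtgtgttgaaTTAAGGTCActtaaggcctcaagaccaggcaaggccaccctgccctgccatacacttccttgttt

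The match at Sox2 reads as a TCF/LEF motif, and a POU octamer lay elsewhere in the same 1 kb window. Matches of the short GC-rich KLF motif were the nearest in 5 of these 9 windows. The case of the letters does not mark repeats, and the motif search did not leave repeats out. A match is a description of letters and says nothing of binding.

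The libraries differed in how many peaks they list, which bears on every absence below. Oct4+ lists held 4127, 16057 and 7443 H3K4me1 peaks, 38619, 65131 and 8574 H3K27ac peaks and 1629, 2948 and 5785 H3K27me3 peaks in replicates 1 to 3, and over all 36 lists the number ran from 1074 to 65131. Sequencing depth is unknown, so a mark that no list gives at a region may still be there below the peak caller's threshold. The Oct4+ label was checked by H3K27ac peaks within 20 kb of the transcription start site (TSS) of marker genes. Of 25 pluripotency genes, 22, 23 and 19 had one in the Oct4+ libraries, where 61.0, 74.0 and 29.6% of all 21911 protein-coding genes did. Endoderm genes had one in 16, 18 and 3 of 25 cases, trophectoderm genes in 13, 16 and 2 of 20 and fibroblast genes, the markers of the feeder cells, in 2, 5 and 0 of 15. In the Pdgfra+ libraries the counts were 4, 5 and 9 for pluripotency and 14, 14 and 15 for endoderm genes. Of all protein-coding genes, 24.6, 33.7 and 27.6% had a peak there. Pluripotency genes were below this share in replicates 1 and 2 (16 and 20%) and above it in replicate 3 (36%).

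Nearly all primed regions had an H3K4me1 peak in Oct4+ replicate 2, the longest H3K4me1 list, as did 99.2% of all 5456 regions. H3K4me1 peaks of replicates 1, 2 and 3 overlapped 860, 1953 and 1638 of the 1975 members (43.5, 98.9 and 82.9%). The shares of all regions were 49.6, 99.2 and 87.2%. Of the members, 501 had a peak in all 3 libraries, 1115 in replicates 2 and 3, 337 in replicates 1 and 2 and 22 in replicates 1 and 3. Among active regions 1416 of 3348 (42.3%) had a peak in all 3 libraries, against 25.4% of primed regions. Applying the same rule to the other 2 libraries gave 3148 members without replicate 1, 1324 without replicate 2 and 917 without replicate 3. The H3K4me1 peaks at members were lower within their own lists as well. The median percentile of total signal (coverage summed over the peak) was 41.5, 61.7 and 41.0 in replicates 1 to 3 at primed and 57.6, 76.5 and 59.4 at active regions.

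Lack of H3K27ac was relative to the 2-library threshold. No H3K27ac peak of any Oct4+ library overlapped 821 members (41.6%), 1117 had a peak of 1 library and 37 had separate, non-merging peaks of 2 libraries. The single-library peaks came from replicate 2 at 779 members, replicate 1 at 333 and replicate 3 at 5. Where present, these peaks had median percentiles of 45.2, 54.6 and 16.8 of total signal in replicates 1 to 3, against 81.1, 85.0 and 63.2 for H3K27ac peaks at active regions. Just outside the H3K4me1 threshold lay 7184 regions with a peak in 1 library, 4106 of which had neither H3K27ac nor H3K27me3. For H3K27me3, 85 members had a peak, all of them in Oct4+ replicate 3 alone. The nearest Oct4+ H3K27ac region began 16 bp from a member, 133 members lay within 1 kb of one, 881 within 10 kb (44.6%), and the median gap was 13.0 kb.

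Both primed and active regions lay outside promoters by the rule. Primed regions were narrower than active ones and lay at a similar distance from the nearest TSS. Their median width was 3203 bp (quartiles 2596 and 4110, range 1105 to 14108 bp), against 3930.5 bp for active regions. The median distance from the H3K4me1 maximum to the nearest protein-coding TSS was 25.6 kb (25.9 kb for active regions), and 41.9% lay within 20 kb. By the position of the maximum, 56.4% were intronic, 38.6% intergenic and 5.06% exonic, against 61.6, 33.7 and 4.66% for active regions. Chromosome 6 held most members, 213 (10.8%), followed by chromosome 4 with 169 (8.56%). It also held most active regions, 302 (9.02%), and chromosome 4 held 234 of these (6.99%). On chromosome X there were 5 members, and between 0 and 0.564% of the peaks of each H3K4me1 list lay there. Another member was within 10 kb for 300 members (15.2%).

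The 5 members found in every Oct4+ H3K4me1 library with the highest percentile of H3K4me1 lay at Casc1, St6galnac3, Sept9, Slc29a3 and Bid, each named for its nearest protein-coding TSS. The highest by mean percentile over the 3 libraries, chr6:145171709-145178172 in an intron 34.3 kb from the Casc1 TSS, had H3K4me1 total signal of 20923, 54884 and 37226 in Oct4+ and 7094, 19842 and 8468 in DP, with no peak in Pdgfra+. It carried H3K27me3 in DP (61163, 61662 and 18028), in Pdgfra+ replicates 2 and 3 (9706 and 69203) and in Oct4+ replicate 3 (27406). The Sept9 region (chr11:117316528-117327303), at a septin gene, had 20329, 61145 and 41156 in Oct4+ and was above Casc1 in replicates 2 and 3. The region at St6galnac3, a sialyltransferase gene (chr3:153672103-153682786), kept H3K4me1 in DP at 8163, 60491 and 19621 and in Pdgfra+ replicate 3 at 8468, with no H3K27me3 anywhere. At Slc29a3, which encodes a nucleoside transporter (chr10:60722790-60730544), H3K4me1 of 17051, 36697 and 23683 was listed in Oct4+ alone. The intronic region near Bid, a pro-apoptotic BCL2 family gene (chr6:120975878-120979830), was the only one of the 5 with H3K4me1 in all 3 Pdgfra+ libraries (7123, 4621 and 20810). Each of the 5 had an H3K27ac peak in Oct4+ replicate 2 alone among the Oct4+ libraries, between 6032 and 26958.

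**Figure D1:**
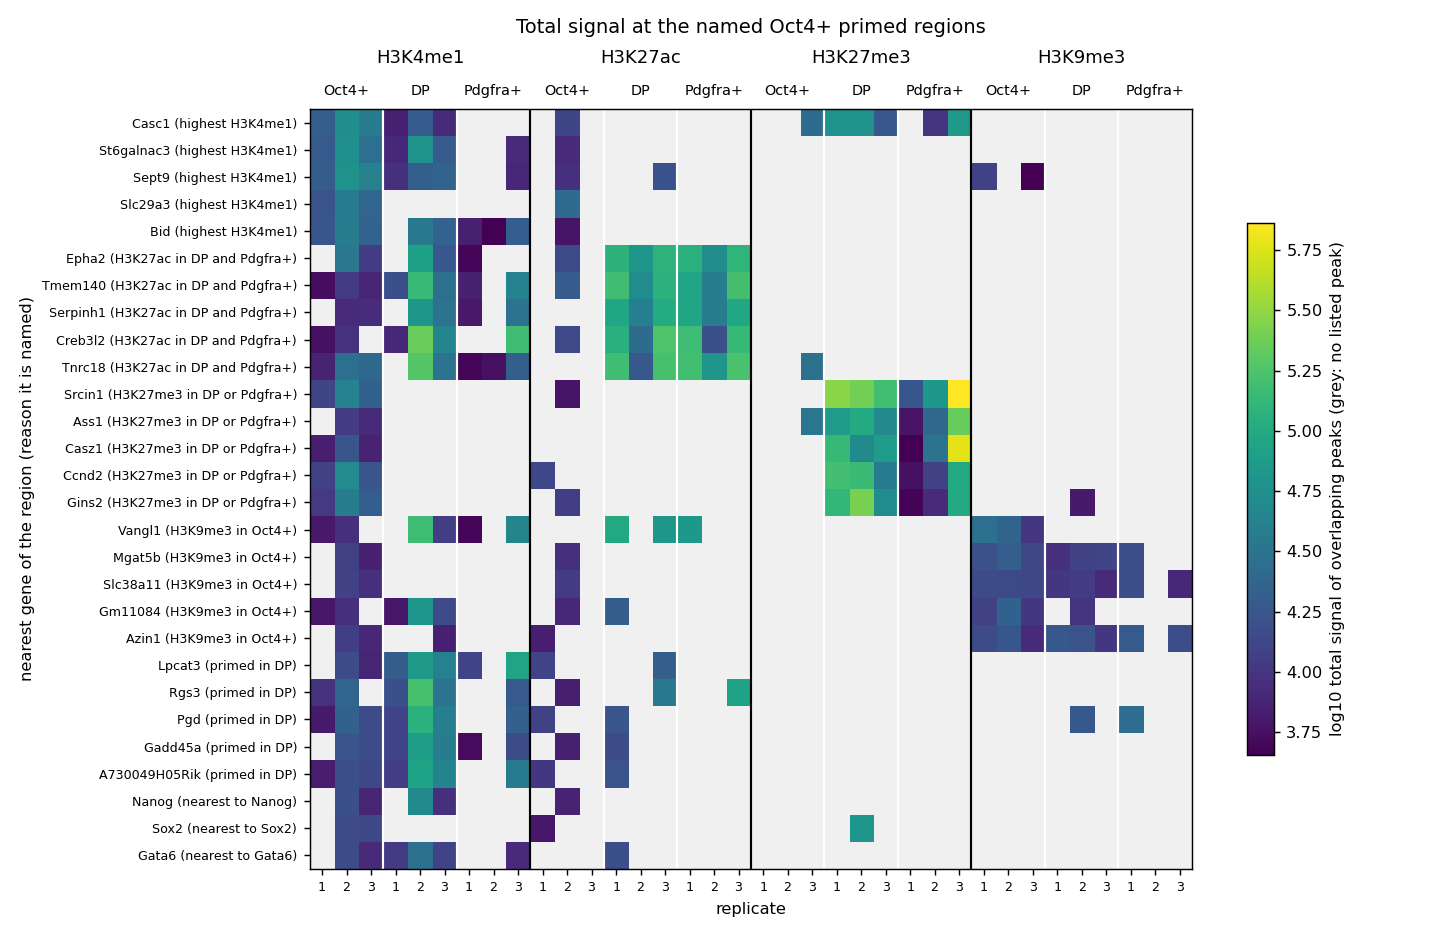
Total signal (log10 of summed coverage) of the peaks overlapping each named member, with 1 column per library in 4 marks, 3 populations and 3 replicates. Grey fields have no listed peak, and signal was not scaled between libraries. The regions named for H3K27ac carry it in all 6 DP and Pdgfra+ libraries and those named for H3K27me3 carry that mark in the 6 H3K27me3 libraries of these populations, while H3K4me1 at the regions named for H3K27me3 is listed in Oct4+ alone.

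Fewer primed than active regions had H3K4me1 in the other populations. Peaks of DP libraries overlapped 12.5, 29.9 and 27.2% of primed regions and those of Pdgfra+ libraries 4.51, 2.58 and 18.6% (replicates 1 to 3). In every one of the 6 libraries the share was lower than at active regions, where it was 22.0, 47.7 and 43.3% in DP and 8.18, 4.93 and 30.7% in Pdgfra+. The difference, primed minus active, averaged -10.2 ± 6.32 percentage points (SD, n = 6 libraries; exact two-sided sign-flip permutation p = 0.031, the smallest that 6 libraries can give, adjusted p = 0.031 over 4 marks). With the same number of peaks in each list it was -4.54 points. The 6 libraries pool 2 populations, with mean differences of -14.4 points in DP and -6.05 in Pdgfra+. With replicate numbers taken as blocks, the sign-flip permutation p was 0.25 for each of the 4 marks, the smallest that 3 blocks can give. Between the populations, the share of primed regions was 23.2 ± 9.38% in DP and 8.56 ± 8.74% in Pdgfra+ (SD, n = 3 each), and this difference of 14.7 points did not pass the test (exact two-sided permutation p = 0.20, where 3 against 3 libraries cannot go below 0.10; adjusted p = 0.667). Pdgfra+ replicate 3 lay above DP replicate 1, so that the groups overlapped. The Pdgfra+ lists held 1723, 1074 and 10620 H3K4me1 peaks and the DP lists 4371, 11874 and 11334, and with equal numbers of peaks the difference was 1.76 points. The shares were then 3.34, 5.87 and 4.61% in DP and 2.73, 2.58 and 3.24% in Pdgfra+, which did not overlap (exact permutation p = 0.10, the smallest possible, adjusted p = 0.20).

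H3K27ac followed the same order. It was listed at 10.5, 2.03 and 12.5% of primed regions in DP and at 5.16, 5.37 and 4.15% in Pdgfra+, against 29.9, 10.4 and 28.6% and 15.1, 15.1 and 15.3% of active regions. The difference was -12.4 ± 4.34 points and negative in 6 of 6 libraries (exact sign-flip permutation p = 0.031, adjusted p = 0.031). DP and Pdgfra+ libraries overlapped at primed regions (8.34 ± 5.55 and 4.89 ± 0.651%; exact two-sided permutation p = 0.40, adjusted p = 0.667). DP replicate 2, with 3079 H3K27ac peaks, was the lowest of all 6, and without it the difference of 3.44 points became 6.60. Without DP replicate 3 it was 1.38, and with equal numbers of peaks 0.169.

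H3K27me3 was more frequent at primed than at active regions. In DP it was listed at 7.09, 11.9 and 6.84% of primed and 2.90, 4.99 and 2.90% of active regions, and in Pdgfra+ at 0.506, 2.48 and 12.4% of primed and 0.358, 0.896 and 4.90% of active regions. All 6 libraries had a higher share at primed regions, by 4.05 ± 2.88 points on average (exact sign-flip permutation p = 0.031, adjusted p = 0.031), and by 1.29 points with equal numbers of peaks. Pdgfra+ replicate 3 was the highest and Pdgfra+ replicate 1 the lowest of the 6, and the DP and Pdgfra+ shares (8.62 ± 2.88 and 5.11 ± 6.35%) did not differ beyond that spread (exact permutation p = 0.50, adjusted p = 0.667). Without Pdgfra+ replicate 3 the difference of 3.51 points was 7.13, and without Pdgfra+ replicate 1 it was 1.21.

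H3K9me3, which the choice of members did not use in any population, lay at few primed regions. The shares were 4.96, 3.70 and 1.92% in Oct4+, 2.43, 5.77 and 2.68% in DP and 5.27, 1.11 and 2.94% in Pdgfra+. All 9 libraries had less H3K9me3 at primed than at active regions, by -2.34 ± 1.53 points (exact sign-flip permutation p = 0.00391, adjusted p = 0.0156), and by -1.20 points with equal numbers of peaks. No difference between the 3 populations passed the test (3.53 ± 1.53, 3.63 ± 1.86 and 3.11 ± 2.08%; exact permutation p of the F statistic 0.925).

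**Figure D2:**
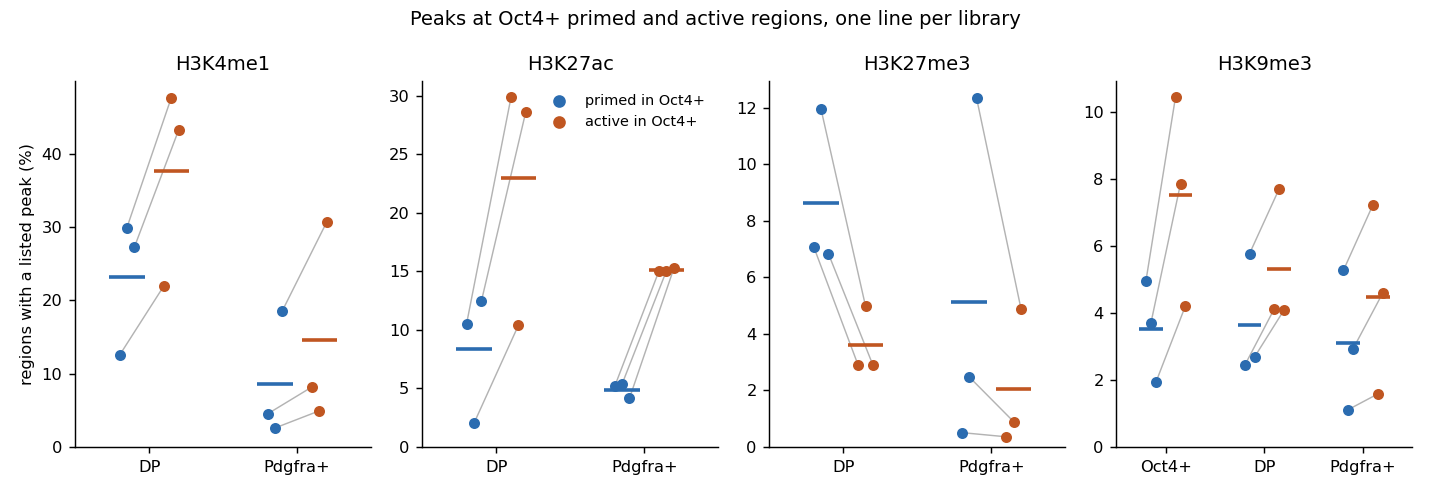
Percentage of Oct4+ primed (blue, 1975) and active (orange, 3348) regions overlapped by a listed peak, by mark and population. Each grey line joins the 2 values of 1 library and bars are means of 3 libraries. Lines rise from primed to active for H3K4me1, H3K27ac and H3K9me3 and fall for H3K27me3 in every library shown.

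Primed regions were narrower than active ones, and a wider region meets more peaks. The comparison was therefore repeated within 3 classes of width. Below 2500 bp, the mean shares at 412 primed and 382 active regions were 10.96 and 16.1% for H3K4me1, 4.25 and 9.90% for H3K27ac and 4.29 and 2.01% for H3K27me3. From 4000 bp, at 534 primed and 1616 active regions, they were 21.3 and 33.9%, 8.68 and 24.8% and 9.68 and 3.24%. In all 3 width classes each of the 6 libraries kept its direction for these 3 marks. For H3K9me3 the direction held in 9 of 9 libraries in the upper 2 classes and in 7 of 9 below 2500 bp. The size of the primed to active difference did not separate DP from Pdgfra+ for H3K4me1, H3K27ac or H3K27me3 (-8.37, -4.40 and 1.97 points, exact permutation, adjusted p = 0.50 each).

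Marks were also counted only where 2 or more libraries of a population shared them. Outside Oct4+ cells each single mark then met at most 25.5% of members. In DP, 504 members (25.5%) overlapped an H3K4me1 region, where 35.2% of all 5456 did. H3K27ac regions of DP met 183 members (9.27%, against 19.1% of all), H3K27me3 regions 187 (9.47%, against 7.77%) and H3K9me3 regions 75 (3.8%, against 4.58%). In Pdgfra+, 126 members overlapped an H3K4me1 region (6.38%, against 9.09% of all), 108 an H3K27ac region (5.47%, against 11.8%), 109 an H3K27me3 region (5.52%, against 4.44%) and 60 an H3K9me3 region (3.04%, against 4.09%). H3K9me3 regions of Oct4+ itself met 72 members (3.65%, against 5.85%). H3K27me3 was the only one of these marks whose share of members lay above that of all regions in both DP and Pdgfra+. A region can extend past a member, and of the 109 members at a Pdgfra+ H3K27me3 region 57 were met by a peak of 1 library only.

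With the marks combined, 1294 members (65.5%) had none of H3K4me1, H3K27ac and H3K27me3 in DP. Another 318 (16.1%) were primed there too, 150 (7.59%) were active and 148 (7.49%) had H3K27me3 alone. Of the Oct4+ active regions, 51.4% had none of the marks in DP, 19.8% were primed, 20.1% active and 2.81% had H3K27me3 alone. Of the other members, 32 were bivalent, 26 had H3K27ac alone and 7 had H3K27ac and H3K27me3. In Pdgfra+, 1688 (85.5%) had none of the 3 marks, 106 H3K27me3 alone, 72 H3K4me1 alone, 54 H3K27ac alone and 52 H3K4me1 with H3K27ac. DP nEnd had 3400 primed regions of its own. Of these 261 met 261 Oct4+ primed regions, which is 7.68% of the DP set and 13.2% of the members. The number differs from 318 because a DP region can reach a promoter or another mark outside the member. Of the 981 Pdgfra+ primed regions, 68 met 68 members (6.93 and 3.44%).

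**Figure D3:**
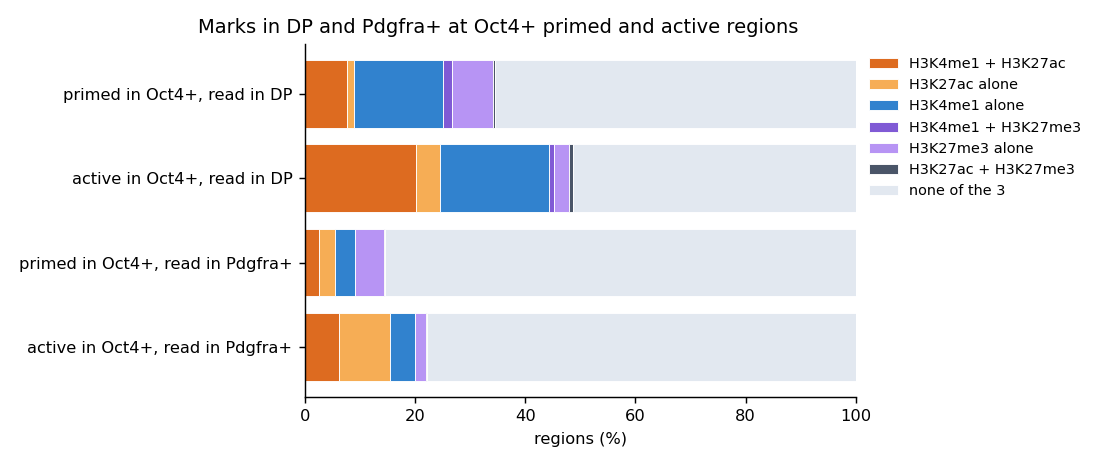
Share (%) of Oct4+ primed and active regions that carry each combination of H3K4me1, H3K27ac and H3K27me3 regions in DP and Pdgfra+. Each bar adds to all regions of its class. Regions with none of the 3 marks make up 65.5% of primed regions in DP and 85.5% in Pdgfra+, against 51.4 and 77.8% of active regions.

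For description, members were divided by their state in the other populations. H3K27ac regions of both DP and Pdgfra+ met 92 members, of DP alone 91 and of Pdgfra+ alone 16. Of the rest, 209 had H3K27me3 in DP or Pdgfra+, 312 had H3K4me1 and 1255 (63.5%) had none of the 3 marks. The members with H3K27me3 lay closest to genes after the 16 with H3K27ac in Pdgfra+, at a median of 15.8 kb from a TSS, and had the highest GC content (median 53.9% in the central 1 kb). Those with none of the marks lay farthest, at 31.3 kb, had 49.1% GC, and were in all 3 Oct4+ H3K4me1 libraries least often but for the 16 with H3K27ac in Pdgfra+ (20.3%, against 38.5% of those that had H3K4me1 alone). Between 50 and 72.8% of each class had an H3K27ac peak in some Oct4+ library.

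Members acetylated in both endoderm populations were led by regions at Epha2, Tmem140, Serpinh1, Creb3l2 and Tnrc18, each with an H3K27ac peak in all 6 libraries. Epha2, an ephrin receptor gene, held its region in an intron 9.81 kb from the TSS (chr4:141310383-141317533). H3K27ac total signal there was 121865, 66536 and 123867 in DP and 116971, 54628 and 125360 in Pdgfra+, beside 14121 in Oct4+ replicate 2 and no peak in the other Oct4+ libraries. The region 2.75 kb upstream of Serpinh1, the gene of a collagen chaperone, had 90620, 40303 and 103720 in DP and 91222, 39066 and 93405 in Pdgfra+, and none in Oct4+ (chr7:99354522-99357507). H3K4me1 at Serpinh1 was 8329 and 8621 in Oct4+ replicates 2 and 3 and 67165 and 31680 in the same DP replicates. At Creb3l2, which encodes a membrane-bound factor of the secretory pathway (chr6:37403770-37407690), H3K27ac was 112952, 27152 and 179817 in DP and 150745, 15796 and 134906 in Pdgfra+. Signal was not scaled between libraries, so these values show presence and the order within a library and were not tested.

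Members that carried H3K27me3 elsewhere were led by regions at Srcin1, Ass1, Casz1, Ccnd2 and Gins2, and none of the 5 had H3K4me1 or H3K27ac in DP or Pdgfra+. The region in an intron 8.88 kb from the TSS of Srcin1, an inhibitor of SRC signalling (chr11:97564963-97571593), had H3K27me3 of 295696, 245840 and 155654 in DP and 17735, 68110 and 728384 in Pdgfra+. Its H3K4me1 in Oct4+ was 13127, 42864 and 22112. In an intron 86.7 kb downstream of the TSS of Casz1, which encodes a zinc finger transcription factor (chr4:148890002-148893403), H3K27me3 was 136653, 51721 and 75851 in DP and 4610, 31244 and 595239 in Pdgfra+. The region upstream of Ccnd2, the cyclin D2 gene (chr6:127245198-127253684), had 161002, 145661 and 37826 in DP and 5702, 12020 and 99933 in Pdgfra+. Pdgfra+ replicate 3 had the highest total signal of the Pdgfra+ libraries at each of the 5, but signal was not scaled between libraries. The lowest total signal of a listed H3K27me3 peak was 4589, 7977 and 25863 in Pdgfra+ replicates 1 to 3. H3K27me3 peaks are broad, so that their total signal includes sequence outside the member.

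Among the 318 members primed in DP as well, those with most DP signal lay at Lpcat3, Rgs3, Pgd, Gadd45a and A730049H05Rik. At Lpcat3, a phospholipid acyltransferase gene (chr6:124670364-124675094), H3K4me1 was 14868 and 7742 in Oct4+ replicates 2 and 3, 20300, 71258 and 42191 in DP and 12565 and 87810 in Pdgfra+ replicates 1 and 3. At Gadd45a, a stress response gene (chr6:67013240-67017708), it was 17460 and 14607 in Oct4+ replicates 2 and 3 and 12713, 75902 and 39205 in DP, beside 5304 and 14843 in Pdgfra+ replicates 1 and 3. All 5 had an H3K27ac peak in 1 DP library, below the threshold of 2, and the Rgs3 region also met an H3K27ac region of Pdgfra+, where replicate 3 had 84446.

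H3K9me3 regions of Oct4+ met 72 members, of which 16 met H3K9me3 regions in DP and Pdgfra+ as well, and 139 members met one in any population. At Mgat5b (chr11:116900312-116902925, intergenic) H3K9me3 was 15913, 20970 and 13253 in Oct4+, 8986, 12342 and 13188 in DP and 15333 in Pdgfra+ replicate 1. The region 13.9 kb downstream of the TSS of Vangl1, a planar cell polarity gene (chr3:102188893-102191210), had H3K9me3 of 28759, 23206 and 10103 in Oct4+ and none elsewhere, and had H3K27ac of 98307 and 66075 in DP replicates 1 and 3 and 68052 in Pdgfra+ replicate 1. Repeats covered 21.4% of the central 1 kb of the 72 members and 18.6% of the others.

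The surroundings of single lineage genes held few members. Within 50 kb of their TSS, Pou5f1 had 2 active regions and no member, Nanog had 3 active regions and 1 member, and Sox2 had 1 member and no active region. No Oct4+ H3K4me1 region outside promoters, with a peak in 2 or more libraries, lay within 50 kb of Tfcp2l1, Esrrb, Klf4 or Zfp42. DP regions and Oct4+ regions with a peak in 1 library were not counted here. By its own peak annotation, the study lists primed DP peaks within 20 kb of Tfcp2l1 and Esrrb. It reports that such priming goes with activation in Oct4+ cells. The Nanog member, 26.01 kb downstream of the TSS (chr6:122730837-122735812), had H3K4me1 of 15686 and 7594 in Oct4+ replicates 2 and 3 and 51812 and 9190 in the same DP replicates, with no peak in Pdgfra+ and no H3K27me3. It had an H3K27ac peak of 7392 in Oct4+ replicate 2 and lay 1.23 kb from an Oct4+ H3K27ac region. Of the endoderm loci read in the same way, Gata6 had a member, and Gata4, Sox17 and Col4a1 had none within 50 kb.

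Genes of 11 lists were then searched for a member within 20 kb of the TSS. Of all 21911 protein-coding genes, 5.46% had one, and 8.54% had an active region. For 8 of the 11 lists the share with a member was above that of all genes. It was highest, at 20% each, for formative and primed pluripotency (4 of 20), Nodal and BMP (4 of 20) and JAK-STAT (3 of 15). Pluripotency genes had a member in 4 of 25 cases (16%) and an active region in 10. FGF-ERK, Wnt and mesendoderm genes had a member in 3 of 20 cases each, endoderm genes in 2 of 25 and trophectoderm genes in 1 of 20, and no neuroectoderm or fibroblast gene had one. Formative and primed pluripotency (3 of 20 with an active region), endoderm (1 of 25) and mesendoderm (2 of 20) were the lists with more genes near primed than near active regions at this distance. Within 50 kb, formative genes had 5 near primed and 7 near active regions and endoderm genes 4 and 4, and within 5 kb mesendoderm genes had 0 and 1. These counts are small and were not tested.

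**Figure D4:**
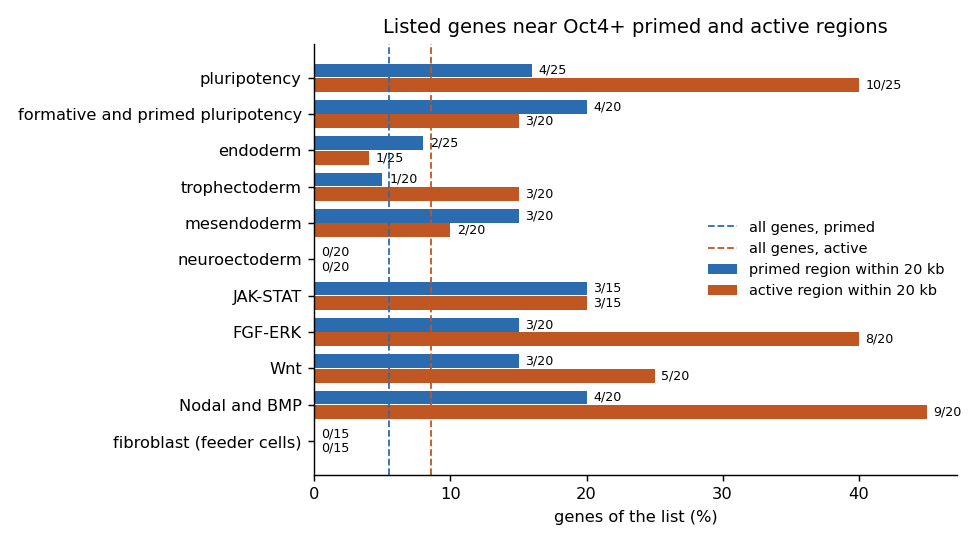
Percentage of the genes of 11 lists with an Oct4+ primed (blue) or active (orange) region within 20 kb of the TSS, with the counts at the bars and dashed lines for all protein-coding genes (5.46 and 8.54%). Counts near active regions exceed those near primed ones for pluripotency, trophectoderm, FGF-ERK, Wnt and Nodal and BMP genes, as they do for all genes.

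The 26 genes found in this way had 28 members, and 8 of the 28 (28.6%) were in the H3K27me3 class, which held 15.1% of the 828 members within 20 kb of any protein-coding TSS. Of these 8, the members of Sox2, Zic2 and Zic5, Jak3 and Fgf15 had an H3K27me3 peak in at most 1 library of a population. The counts were not tested. Of the pluripotency genes, Sox2, a core factor, had a member 18.1 kb downstream (chr3:34667960-34670792) with H3K4me1 of 14740 and 13681 in Oct4+ replicates 2 and 3 and an H3K27me3 peak of 65700 in DP replicate 2 only. Gbx2, a homeobox gene of naive pluripotency, had one 4.96 kb upstream (chr1:89935130-89938131), with H3K4me1 of 6316, 15717 and 9609 in Oct4+ and H3K27me3 of 74473, 124569 and 104747 in DP. Nr5a2, a nuclear receptor gene, had one in an intron 2.56 kb from its TSS (chr1:136956719-136958572), with H3K27me3 of 145473, 119702 and 72459 in DP. Neither Gbx2 nor Nr5a2 had H3K27me3 there in Oct4+ or Pdgfra+ libraries. The region of Prdm14, a regulator of naive pluripotency, had no H3K27me3 and had H3K4me1 in DP (15625 and 6657 in replicates 2 and 3). The members of Sox2, Gbx2, Nr5a2 and Prdm14 each had an H3K27ac peak in 1 Oct4+ library (6237, 7173, 7756 and 8753), below the threshold.

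Among regulators of later stages, a region between Zic2 and Zic5 (chr14:122468008-122469963) had H3K27me3 in DP replicate 1 alone (150702). Foxd3, a forkhead gene of the formative epiblast and the neural crest, had 2 members 6.98 and 14.0 kb downstream. The nearer had H3K27me3 in DP replicates 2 and 3 (156007 and 17502) and Pdgfra+ replicate 3 (69148) and the other had none of the marks outside Oct4+. Gsc, a homeobox gene of the organiser, had a member 11.99 kb upstream (chr12:104484231-104486891) with H3K4me1 of 7995 and 8231 in Oct4+ replicates 1 and 2 and H3K27me3 of 487705, 200929 and 122076 in DP and 220383 in Pdgfra+ replicate 3. Snai1, a repressor of E-cadherin, had one 8.09 kb upstream. H3K4me1 there was 8253 and 19724 in Oct4+ replicates 1 and 2 and 118630 and 42139 in DP replicates 2 and 3. Signal was not scaled between libraries, so these values do not show a difference between the populations.

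Endoderm genes near members kept H3K4me1 in DP. The region near Gata6, a driver of primitive endoderm, lay 11.2 kb upstream on chromosome 18. It had H3K4me1 of 14606 and 8520 in Oct4+ replicates 2 and 3, 11018, 29649 and 12540 in DP and 8318 in Pdgfra+ replicate 3, and H3K27ac in DP replicate 1 alone (15801). Lamc1, the gene of a laminin chain of the basement membrane, had a member 16.2 kb downstream with H3K4me1 of 7838, 37470 and 26837 in Oct4+, 16682, 71145 and 33319 in DP and 31145 in Pdgfra+ replicate 3. Eomes, a T-box gene of trophoblast and mesendoderm, had a member 18.6 kb downstream of its TSS (chr9:118495025-118498895). H3K4me1 was present in all Oct4+ (11798, 18269 and 15046) and all DP libraries (9331, 35438 and 19139), and H3K27ac in all DP (26597, 13783 and 21670) but no Oct4+ or Pdgfra+ library. H3K9me3 at Eomes was 4756, 7425 and 4788 in Oct4+, 10891 in DP replicate 2 and 12445 in Pdgfra+ replicate 3.

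Of the signalling genes, ligands, transducers and inhibitors were found. Bmp4, a ligand, had a member 7.67 kb upstream with no mark outside Oct4+, and Fgf15, a ligand of the FGF pathway, one with H3K27me3 in DP replicate 1 (114504) and Pdgfra+ replicate 3 (31273). Stat3, the transcription factor downstream of LIF, had a member in an intron 4.53 kb downstream of its TSS, with H3K4me1 of 8446 and 7224 in Oct4+ replicates 2 and 3 and no mark in DP or Pdgfra+. Near Socs3, an inhibitor of JAK-STAT signalling, the region 7.62 kb downstream (chr11:117961136-117965842) had H3K27ac of 24676 and 78171 in DP replicates 1 and 3 and 107396 and 16243 in Pdgfra+ replicates 1 and 2, while the one 12.8 kb upstream had H3K4me1 in DP replicate 2 only. Id1, a target of BMP, had a member 1.72 kb from its TSS (chr2:152736514-152742753) with H3K4me1 of 13095, 72141 and 22542 in DP and H3K27ac of 42865 and 26016 in Pdgfra+ replicates 1 and 2 and 48757 in DP replicate 3. Etv4, an ETS factor and target of FGF signalling, had an intronic member with H3K27ac of 33647, 11752 and 30086 in Pdgfra+ and 25911 and 26658 in DP replicates 1 and 3. Jak3, Spry1, Axin2, Tcf7l1, Wnt6, Skil and Smad7 made up the rest of the signalling genes, and Foxh1 was on the mesendoderm list. Jak3 was of the H3K27me3 class. The Smad7 region met H3K27ac regions of both DP and Pdgfra+, with a peak of replicate 3 alone in each (216336 and 115072).

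Motifs of 13 transcription factor families were searched on both strands of 1 kb windows at the H3K4me1 maximum, beside windows 10 kb away and all 5456 regions. The POU octamer (ATGCAAAT), the site of OCT4 and related factors, was in 170 members (8.61%), against 4.66% of windows 10 kb away, 7.18% of all regions and 6.15% of active regions. Letters of KLF factors (GGGNGTGG), which include the naive regulators KLF2, KLF4 and KLF5, were in 50.4% of members and 33.5% of windows away (48.7% of all regions). For TFAP2 (GCCNNNGGC), a trophoblast and ectoderm family, the shares were 31.1 and 23.4% (30.6% of all regions). For the nuclear receptor ESRRB (TNAAGGTCA) they were 11.1 and 7.04% (11.9%), and for the CTCF core (AGGNGGCAG) 15.8 and 11.7% (15.2%). STAT factors, which act downstream of LIF, have a palindromic motif (TTCCNGGAA) that was in 4.61% of members and 2.99% of windows away (4.25%).

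Among the shorter motifs, that of TCF/LEF (ATCAAAG), the nuclear partners of beta-catenin, was in 15.7% of members and 13.5% of windows away (15.5% of all regions). The TEAD motif (GGAATGT), read by partners of YAP, was in 15.5% of members and 12.9% of windows away. It was less frequent in members than in all regions (17.96%) and in active regions (19.4%). Differences from the windows away were at most 1.32 points for SOX (CATTGTT) at 14.4% of members and for the GATA factors of endoderm, with the letters AGATAAG, at 11.8%. The same held for AP-1 (TGANTCA) at 26.5% and for the forkhead motif FOXA (TGTTTAC) at 12.3%. All regions had these 4 motifs in 14.7, 12.4, 27.7 and 13.0% of windows. OTX (GGGATTA) was the only motif less frequent in members than in the windows away (15.04 and 20.5%, with 16.1% of all regions).

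A composite of the SOX and POU motifs (CATTGTTATGCAAAT), with at most 2 mismatches, was in 24 members (1.22%), against 0.506% of windows away and 0.953% of all regions. Without the last base of the SOX motif, the compressed form (CATTGTATGCAAAT) was in 19 members (0.962%), the same share as in the windows away and 0.880% of all regions. The composite patterns join the SOX and POU motifs, so their shares are not independent of those motifs. With mismatches allowed, a composite match need not hold either motif exactly. The Casz1 window shown above held no exact SOX or POU octamer match. The median GC content of member windows was 49.8%, against 46.9% for windows 10 kb away, and 18.7% of their sequence was repeats, against 27.1%. The part of GC content and repeats in these shares was not tested.

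**Figure D5:**
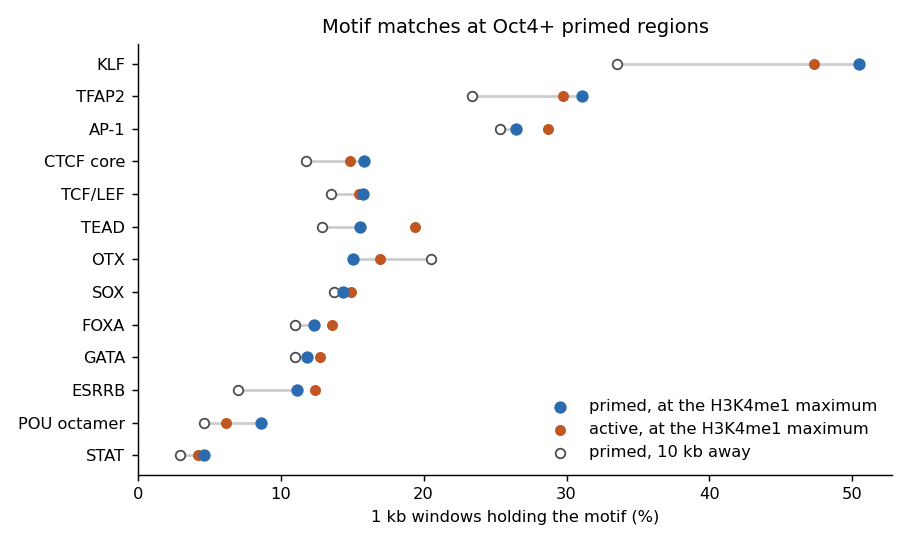
Share (%) of 1 kb windows that hold each of 13 motifs, for Oct4+ primed regions (blue), active regions (orange) and windows 10 kb away from the primed regions (open). The POU octamer is at 8.61% in primed, 6.15% in active and 4.66% in shifted windows, and OTX alone lies below its shifted value.

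Motif shares differed between the classes of members. The POU octamer was in 1 of 92 members acetylated in both DP and Pdgfra+, 8 of 91 acetylated in DP alone, 16 of 209 with H3K27me3, 24 of 312 with H3K4me1 and 120 of 1255 (9.56%) with none of the 3 marks. TFAP2 was in 85 of 209 (40.7%) with H3K27me3, 36 of 92 (39.1%) acetylated in both and 33 of 91 (36.3%) acetylated in DP alone. It was in 5 of 16 acetylated in Pdgfra+ alone, 83 of 312 (26.6%) with H3K4me1 and 372 of 1255 (29.6%) with none. The CTCF core was in 20 of 92 (21.7%), 27 of 91 (29.7%) and 170 of 1255 (13.5%) of the classes acetylated in both, acetylated in DP alone and with none. It was in 5 of 16 acetylated in Pdgfra+ alone, 36 of 209 (17.2%) with H3K27me3 and 55 of 312 (17.6%) with H3K4me1. These shares describe letters in the reference sequence and were not tested. Median GC content of the windows also differed. It was 53.9% with H3K27me3, 51.35% acetylated in both, 51.0% in DP alone and 52.3% in Pdgfra+ alone. With H3K4me1 it was 49.95% and with none 49.1%. The part of GC content in the motif shares was not tested.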

How the data were processed

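CUT&Tag, in which an antibody directs Tn5 transposase to DNA around a histone mark, was performed by the authors on FACS-sorted nEnd. The deposited lists give the total and maximum signal of each peak, as unscaled fragment coverage that the authors obtained with BEDtools, with peaks called by SEACR in stringent mode against IgG in each library. The submitters' processing notes also name bcl2fastq 2.19.1, Bowtie2, SAMtools 1.12, bedtools 2.26.0 and the build mm10. The normalization option of SEACR is not given in the sources used here. No IgG sample was used (3 are labelled). Depth is unknown, so no interval or model of signal was computed.

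Overlaps of at least 1 bp were computed in Python 3.11.15 (NumPy 2.4.6, pandas 2.3.3), tested on simulated data and checked against bedtools 2.31.1. Promoters ran from 1000 bp upstream to 100 bp downstream of every TSS of the GENCODE vM21 basic annotation. Sequence came from RefSeq's GRCm38 genome through pysam 0.24.0. Figures were drawn with Matplotlib 3.10.9.

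Each test took a library as 1 value and was an exact two-sided permutation test. Shares of 3 DP and 3 Pdgfra+ libraries were compared over 20 assignments and 9 libraries by the F statistic over 1680. Primed and active shares of 1 library were compared by flipping signs. Adjusted p-values follow Benjamini and Hochberg over the marks of a family (3 or 4), with a threshold of 0.05.

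The members, gene lists and motifs were chosen with earlier results of these data known. Genes named were list genes with a member within 20 kb, the 5 leading members of each class by number of libraries and percentile of total signal, and the members within 50 kb of 12 lineage genes, of which 1 is not reported here. The composite motifs were added after the data were seen. Alternatives were equal numbers of peaks per list, the 50% of peaks of highest signal, coverage of 50% of the region, 1 kb windows, other definitions of members, log2 ratios and leaving out each library.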

Additional observations from a re-analysis of the deposited data

How the results depend on the processing

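Among the alternatives tried, the number of primed regions depended most on the definition: 501 with H3K4me1 in all 3 Oct4+ libraries, 775 with no H3K27ac or H3K27me3 peak in any Oct4+ library, and 917 to 3148 when leaving out an Oct4+ replicate, where the highest was without replicate 1 and the lowest without replicate 3. It was 1322 with equal numbers of peaks and 1822 with promoters of 2 kb. The primed minus active differences kept their direction under every alternative. Leaving out 1 library they ran from -11.8 to -8.73 points for H3K4me1, from -13.2 to -11.0 for H3K27ac, from 3.36 to 4.83 for H3K27me3 and from -2.57 to -1.95 for H3K9me3. For the first 3 marks the p was then 0.0625, the smallest that 5 libraries can give. Whether replicate numbers pair the samples is not known. Correlations of deviations between samples of the same number ran from -0.324 to 0.228 over the 4 marks. Those between samples of different numbers ran from -0.272 to 0.259, so these correlations cannot tell whether numbers pair. With a replicate block the values were the same (-10.2, -12.4, 4.05 and -2.34 points) and p was 0.25, the smallest that 3 blocks can give. The H3K9me3 share of Oct4+ minus that of Pdgfra+ was 0.422 points and reversed with equal numbers of peaks (-0.624, exact permutation p = 0.0357, adjusted p = 0.143), with the 50% of peaks of highest signal (-0.304) and with peaks covering 50% of the region (-0.321), and ran from -0.574 to 1.5 when leaving out 1 library, negative without Oct4+ replicate 1 and without Pdgfra+ replicate 2. The cause was not tested. Compared with all genes, endoderm and mesendoderm genes changed from above to below within 5 kb of the TSS (-1.47 points each) and trophectoderm genes from below to above within 50 kb (13.1 points). Nodal and BMP genes moved from 14.5 to 38.1 points within 50 kb (10 of 20 genes), where no other list was as high. The compressed SOX-POU composite was -0.0506 points from the windows away in 400 bp windows. Depth is unknown and limits what an unlisted peak shows.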
